A study of Mus musculus with 8 samples.

Results

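Members of the follicular helper T cell program were followed through donor T cells that had been given to a mismatched host. They are the transcription factors and cofactors Bcl6, Tox2, Ascl2, Pou2af1 and Maf, the receptor Cxcr5, the signaling adaptor Sh2d1a, and the secreted factors Il21, Angptl2 and Sostdc1. The 10 genes were taken by name from the 25078 genes of the deposited table, and all 10 were among the 12428 genes that passed the filter on low counts. The list was drawn up with the measured levels and fold changes of these 8 libraries in view, so the values of the 10 genes are given as a description, without p-values of their own.

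The cells were donor CD4 or CD8 T cells from recipient spleen, taken on day 6 after hematopoietic cell transplantation (HCT). All donors were C57BL/6 mice, all recipients were BALB/c mice, an MHC-mismatched pair, and recipients were lethally irradiated and also received T cell–depleted bone marrow of WT C57BL/6 donors. Donor T cells were either WT or STAT3-deficient (STAT3KO), the latter from Stat3 fl/fl CD4-Cre mice. CD4-Cre acts in developing thymocytes that pass through a stage with both CD4 and CD8, so both sorted populations carry the deletion, and T cells with Cre and an intact Stat3 were not analysed here. Cells were sorted as H-2Kb+TCRβ+CD4+ or H-2Kb+TCRβ+CD8+. Every library was a pool of lymphocytes from 3 recipients. The paper describes those given WT T cells as having graft-versus-host disease (GVHD) and those given STAT3-deficient T cells as non-GVHD recipients. Donor genotype and disease of the recipient therefore cannot be told apart in the comparisons between STAT3KO and WT. Each combination of genotype and cell type had 2 libraries, which makes 4 groups, and the age of the mice was not given in the sources used here.

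Follicular helper T cells are CD4 T cells that enter B cell follicles and help B cells form germinal centers and produce high-affinity antibody. Bcl6 is the repressor that defines the lineage, and Prdm1 (Blimp-1) opposes it. Cytokines such as IL-6, IL-21 and IL-27 signal through STAT3 in T cells, and IL-21 is itself a main product of follicular helper cells. After allogeneic HCT, donor T cell help to B cells is best known in chronic GVHD, in which germinal centers and alloantibody can form.

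Each library held between 20171396 and 23282757 counts, with TMM factors from 0.982 to 1.03. Levels are given as CPM, relative to the TMM-scaled library total. Stat3 RNA was at 436 and 428 CPM in the WT CD4 libraries against 138 and 141 CPM with STAT3 deleted. In the CD8 libraries it was at 431 and 436 CPM in WT and at 119.7 and 143 CPM in STAT3KO. Stat3 RNA in STAT3KO cells thus stood at 32.4% of WT among CD4 and 30.3% among CD8 T cells. The genotypes did not overlap. The count is over the whole gene, so it does not separate transcripts with and without the floxed exons. The sort was visible in the Cd4 transcript, which in the CD8 libraries was between 0.0736% and 0.514% of its mean in CD4 libraries of the same genotype.

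In mm10, the deposited table places on the plus strand Tox2 at chr2:163203127-163324172, Pou2af1 at chr9:51213690-51240079, Sh2d1a at chrX:42502565-42522095, Angptl2 at chr2:33215961-33247714 and Sostdc1 at chr12:36314169-36318452. On the minus strand it places Bcl6 at chr16:23965050-23988852, Ascl2 at chr7:142966822-142969264, Maf at chr8:115703253-115706894, Cxcr5 at chr9:44511787-44526444 and Il21 at chr3:37222759-37232636. The GENCODE annotation lists all 10 as protein-coding, and each count covers a whole RefSeq gene.

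Sequence upstream of the members was read because the groups differ in STAT3, and STAT proteins are known to bind the palindrome TTCNNNGAA. RefSeq windows on GRCm38.p6, from 250 bases before to 50 bases after a transcript start, were available for 6 of the 10 genes: Angptl2, Ascl2, Bcl6, Il21, Pou2af1 and Tox2, 11 windows in all. TTCNNNGAA, which reads the same on both strands, occurred in 8.3% of all 32851 windows of that length. Among the members it occurred in the Bcl6 windows alone. The octamer ATGCAAAT (1.74% of all windows, searched on both strands), which is bound by the Oct factors that Pou2af1 partners, was in none of the 11 windows. A match describes letters and not a bound site, and the absence of a match says nothing about the factor.

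The 2 Bcl6 windows are shown because Bcl6 is the lineage-defining member and both carry the palindrome, in capitals below. Each sequence is the 250 bases before a transcript start, 5′ to 3′ on the minus strand of chromosome 16. The upstream window lies at chr16:23988853-23989102, directly before the annotated gene and in no annotated gene. The internal window lies at chr16:23981284-23981533, inside Bcl6 but in none of its annotated exons (GENCODE M21).
Bcl6, upstream start: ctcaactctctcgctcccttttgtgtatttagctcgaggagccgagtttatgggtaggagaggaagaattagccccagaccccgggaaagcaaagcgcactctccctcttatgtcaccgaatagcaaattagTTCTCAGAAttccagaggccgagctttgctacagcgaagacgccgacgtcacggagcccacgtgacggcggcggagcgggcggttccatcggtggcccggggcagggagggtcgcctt
Bcl6, internal start: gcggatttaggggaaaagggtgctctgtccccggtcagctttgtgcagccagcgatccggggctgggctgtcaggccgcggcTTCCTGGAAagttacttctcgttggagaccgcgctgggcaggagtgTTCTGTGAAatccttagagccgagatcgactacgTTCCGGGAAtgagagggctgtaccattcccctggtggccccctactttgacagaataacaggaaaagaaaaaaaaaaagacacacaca
The upstream start had 1 match, beginning 118 bases before the start. The internal start had 3 matches, beginning 168, 122 and 88 bases before the start, and 3 or more matches were found in 11 of the 32851 windows (0.0335%). That cutoff of 3 was taken from this window after its matches were seen, so the share is a description only.

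Per length, the genes were far apart in abundance. In WT CD4 T cells, Sh2d1a had the highest mean level, 205 ± 47.9 RPKM (the deposited length-scaled level; SD, n = 2), and stood above the other 9 genes. Sostdc1 (101 ± 15.1 RPKM), Cxcr5 (94.8 ± 0.585), Maf (85.6 ± 28.0), Angptl2 (66.5 ± 5.27), Il21 (64.0 ± 7.68) and Tox2 (56.5 ± 8.17) followed, and each of these overlapped its neighbor in that order. Bcl6 (20.3 ± 3.13 RPKM), Pou2af1 (9.49 ± 0.738) and Ascl2 (0.605 ± 0.187) came last and stood apart from one another. The order in STAT3KO CD4 T cells was different. Sh2d1a (173 ± 13.7 RPKM), Maf (85.7 ± 11.0), Il21 (38.8 ± 2.91) and Cxcr5 (28.5 ± 6.44) led, each apart from the next, and Sostdc1, at 14.6 ± 5.76 RPKM, had moved from the second to the fifth place.

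**Figure D1:**
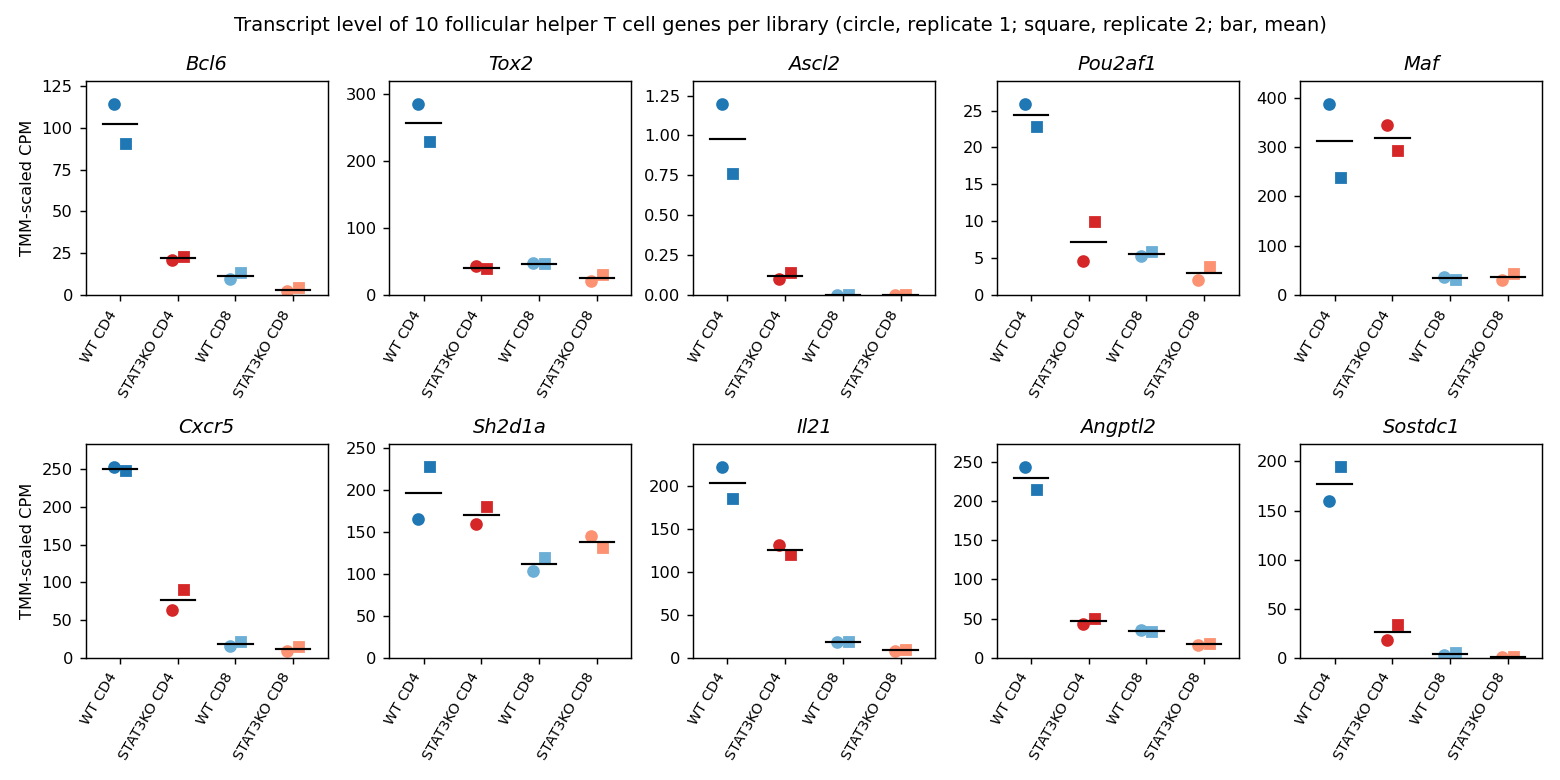
Level of each of the 10 genes in TMM-scaled CPM (y axis, linear and starting at 0, scaled per gene) in the 4 groups (x axis), with circles for replicate 1, squares for replicate 2 and a bar for the mean of the 2 libraries. In CD4 T cells all WT points lie above all STAT3KO points for 8 genes, whereas the points of Maf and Sh2d1a overlap.

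STAT3-deficient CD4 T cells had less RNA of 8 of the 10 genes than WT CD4 T cells, without overlap between libraries, as did 25.0% of all genes. The factors Tox2, Bcl6, Pou2af1 and Ascl2, the receptor Cxcr5 and the secreted products Sostdc1, Angptl2 and Il21 were lower, with Sostdc1 at 14.7%, Tox2 at 15.96%, Angptl2 at 20.4% and Bcl6 at 21.5% of WT. Maf and Sh2d1a did not pass the test. Over the 9 genes other than Ascl2, the median log2 fold change was -1.74, against 0.017 over all 12428 genes. Passing the test means an adjusted p under 0.05 (edgeR quasi-likelihood test, Benjamini-Hochberg over all genes), which 5.08% of all genes did in the lower direction, and since the list was chosen with such values known, the count of 8 carries no weight of its own. In sorted bulk populations, fewer cells of the follicular helper type and less of the RNA per cell cannot be told apart.

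Bcl6 is a zinc-finger repressor that silences competing T helper programs. The WT CD4 libraries held 114 and 90.3 CPM of Bcl6 and the STAT3KO CD4 libraries 21.1 and 23.0 CPM, a log2 fold change of -2.21 ± 0.24 (SE). Among the CD8 libraries its level was 9.94 and 13.5 CPM in WT and 2.31 and 4.15 CPM in STAT3KO, a log2 fold change of -1.85 ± 0.28. The 4 groups stood apart, CD4 above CD8 and WT above STAT3KO within each, and Bcl6 passed the test in both cell types. Of its annotated exon bases, 0.313% are shared with a gene on the opposite strand.

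Tox2, a DNA-binding protein that promotes the follicular helper program, was at 284 and 228 CPM in WT CD4, and at 42.9 and 38.9 CPM in STAT3KO CD4 T cells. The log2 fold change was -2.65 ± 0.18. In the CD8 libraries Tox2 was at 47.5 and 46.6 CPM in WT and at 21.4 and 29.4 CPM in STAT3KO, a log2 fold change of -0.89 ± 0.17. Tox2 was the only one of the 10 genes whose STAT3KO CD4 libraries lay below the WT CD8 libraries, with all 4 groups apart.

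Ascl2 is a basic helix-loop-helix factor that can induce Cxcr5. It was counted 24 and 16 times in the WT CD4 libraries, 2 and 3 times in the STAT3KO CD4 libraries, and not at all in the 4 CD8 libraries. The ratio of WT to STAT3KO in CD4 T cells was 8.13, with a 95% exact interval from 3.21 to 26.4 that covers counting error only. Ascl2 passed the filter through the WT CD4 libraries alone. A count of 0 allows up to 3 counts per library, or 0.130 CPM in the WT CD8 library with the higher limit. The WT CD4 mean, 0.977 CPM, was 7.53 times that limit, with no allowance for error in the WT CD4 counts. From the summed counts, the 95% exact interval of the ratio of WT CD4 to WT CD8 began at 11.8, again for counting error only. No fold between genotypes can be given for CD8 T cells.

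Pou2af1 (OCA-B or Bob1), a coactivator of Oct factors that is best known from B cells and is also made in follicular helper cells, was at 25.9 and 22.8 CPM in WT CD4. It was at 4.65 and 9.87 CPM in STAT3KO CD4 T cells, a log2 fold change of -1.74 ± 0.37. The STAT3KO CD4 libraries overlapped the WT CD8 libraries, at 5.32 and 5.85 CPM. STAT3KO CD8 T cells, at 2.03 and 3.88 CPM, lay below WT CD8 with a log2 fold change of -0.91 ± 0.40 that did not pass the test.

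Because Pou2af1 is also a B cell gene, B cell markers were read beside it. The summed level of 12 such markers was between 104 and 125 CPM in WT CD4 and between 153 and 175 CPM in STAT3KO CD4 T cells, the opposite order to Pou2af1. Most of that sum was Cd22, at 25.3 to 168 CPM over the 8 libraries. Ms4a1 and Cd79a reached at most 0.150 and 0.337 CPM in any library, Cr2 was at 0 in 5 libraries and Fcer2a in 7. Cd79b was at 0.898 to 12.9 CPM over the 8 libraries, highest in the CD8 libraries, and Bank1 at 0.475 to 3.61 CPM. Of the 12 markers, 4 were lower without overlap in STAT3KO CD4 T cells, as 25.0% of all genes were, and 4 were higher. Pax5, another B cell factor in this list, was lower in STAT3KO without overlap in both cell types, as Pou2af1 was. It was at 16.9 and 9.59 CPM in WT CD4 and at 0.200 and 0.503 CPM in STAT3KO CD4 T cells. In CD8 T cells Pax5 was near the floor, at 0.648 and 0.590 CPM in WT and 0 and 0.0451 CPM in STAT3KO. There 2 of the 12 markers were lower without overlap, as 24.8% of all genes were, and 1 was higher. The part of these markers in the Pou2af1 result was not tested.

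Maf (c-Maf) activates Il21 and Il4 in helper T cells, and it was the member with the smallest difference between genotypes. WT CD4 libraries held 387 and 238 CPM and STAT3KO CD4 libraries 345 and 291 CPM, so that the STAT3KO values lay between the WT values. The CD4 log2 fold change was 0.03 ± 0.24. That of CD8 T cells was 0.11 ± 0.25, where WT was at 37.0 and 31.7 CPM and STAT3KO at 31.2 and 42.8 CPM. Neither passed the test, and the sign of both changed when single libraries were left out. In GENCODE M21, 5.34% of the Maf exon bases are shared with a gene on the opposite strand.

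Cxcr5, the chemokine receptor that guides T cells into B cell follicles, was at 253 and 247 CPM in WT CD4. STAT3KO CD4 T cells held 64.0 and 89.5 CPM, or 30.7% of WT, and the log2 fold change was -1.70 ± 0.24. The CD8 level of Cxcr5 was 15.7 and 20.6 CPM in WT and 8.83 and 14.03 CPM in STAT3KO. The genotypes did not overlap there either, but the log2 fold change of -0.66 ± 0.25 did not pass the test. Bcl9l, on the opposite strand, shares 3.3% of the Cxcr5 exon bases.

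Sh2d1a encodes SAP, the adaptor below SLAM-family receptors that T cells need for lasting contact with B cells. It was at 166 and 228 CPM in WT CD4 and at 159 and 181 CPM in STAT3KO CD4 T cells, which overlapped, and the log2 fold change was -0.21 ± 0.16. Of the CD8 libraries, those of STAT3KO, at 145 and 131 CPM, lay above those of WT, at 104 and 119 CPM, with a log2 fold change of 0.31 ± 0.16. Neither difference passed the test. The exons annotated to Sh2d1a share 26.6% of their bases with Tenm1 on the opposite strand, and whether the authors' counting used strand was not given in the sources used here.

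Il21, the cytokine that acts on germinal center B cells and back on T cells, was at 222 and 185 CPM in WT CD4 and at 131 and 119.7 CPM in STAT3KO CD4 T cells. This was 61.7% of WT, a log2 fold change of -0.70 ± 0.12 and the smallest in size among the 8 genes called in CD4. CD8 T cells held 18.2 and 19.0 CPM of Il21 in WT and 8.54 and 9.34 CPM in STAT3KO, 48.0% of WT. Its log2 fold change there, -1.06 ± 0.13, was larger in size than in CD4, which held for no other member with a called difference in both. In GENCODE M21, 8.92% of the Il21 exon bases are shared with a gene on the opposite strand.

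Angptl2, a secreted angiopoietin-like glycoprotein, was at 244 and 214 CPM in WT CD4 and at 43.7 and 49.7 CPM in STAT3KO CD4 T cells. Its log2 fold change, -2.29 ± 0.12, had one of the smallest errors among the members. The WT CD8 level was 35.0 and 33.5 CPM, against 16.5 and 18.0 CPM in STAT3KO CD8, a log2 fold change of -0.99 ± 0.12. All groups were apart. Because Angptl2 and Sostdc1 are also made by non-hematopoietic cells, 12 stromal and endothelial markers were summed. They gave 346 to 407 CPM in WT CD4 and 264 to 282 CPM in STAT3KO CD4 T cells, nearly all of it Pecam1, which T cells also express. Of the 12 markers, 4 were lower without overlap in STAT3KO CD4 T cells, as 25.0% of all genes were, 1 was higher and 7 overlapped. In CD8 T cells 3 were lower without overlap, as 24.8% of all genes were. Apart from Pecam1, the highest was Lum, a proteoglycan of connective tissue, at 2.59 and 2.50 CPM in WT CD4 and 0.200 and 0.183 CPM in STAT3KO CD4 T cells, and at 0.346 and 0.379 CPM in WT CD8 and 0.0482 and 0.0902 CPM in STAT3KO CD8 T cells. Dcn, another such proteoglycan, was at 0.948 and 1.18 CPM in WT CD4 and at 0 and 0.411 CPM in STAT3KO CD4 T cells. In CD8 T cells Dcn overlapped between genotypes, at 0.0432 and 0.126 CPM in WT and at 0 and 0.406 CPM in STAT3KO. Fn1, the marker that was higher, had a mean of 0.415 CPM in WT CD4 and 1.24 CPM in STAT3KO CD4 T cells. Of the markers that overlapped in CD4 T cells, all but Col3a1 had the higher mean in STAT3KO. Lum was lower in STAT3KO within each cell type and in CD8 within each genotype, as Angptl2 and Sostdc1 were, at far lower levels. For Lum, unlike Angptl2 and Sostdc1, the WT CD8 libraries lay above the STAT3KO CD4 libraries. The part of these markers in the result was not tested.

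Sostdc1, a secreted antagonist of BMP and Wnt signaling that marks follicular helper cells, had the widest range of the 9 genes counted in every group. It was at 160.1 and 195 CPM in WT CD4 and at 18.6 and 33.5 CPM in STAT3KO CD4 T cells, a log2 fold change of -2.77 ± 0.35. WT CD8 T cells held 3.33 and 4.80 CPM and STAT3KO CD8 T cells 0.434 and 1.40 CPM, which came from 9 and 31 counts. The CD8 log2 fold change was -2.12 ± 0.52 and did not pass the test, although the genotypes did not overlap. DESeq2, edgeR's likelihood-ratio test and the fit without a filter on low counts called it.

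**Figure D2:**
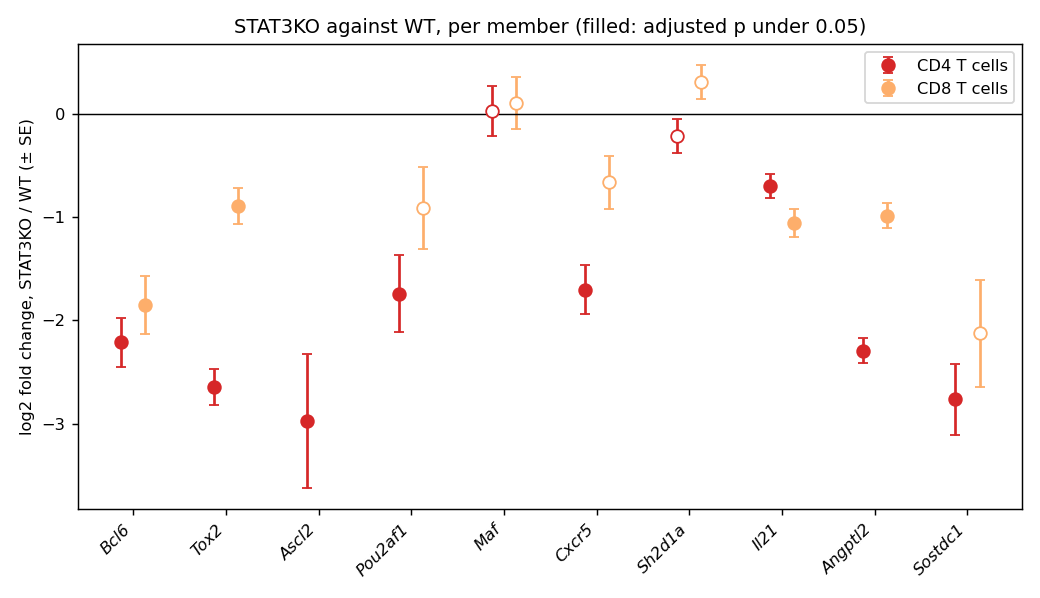
Log2 fold change of STAT3KO against WT (y axis, points ± SE, 2 libraries a group) for each of the 10 genes (x axis) in CD4 (red) and CD8 T cells (orange), with filled points where the adjusted p was under 0.05. The CD4 points of 8 genes lie between -2.97 and -0.70, Maf and Sh2d1a lie near 0, and Ascl2 has no CD8 point because all CD8 libraries were at 0.

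The calls in CD4 T cells rested on all 4 CD4 libraries to different degrees. Leaving out any 1 of those 4 libraries left 6 of the 10 genes called (3.23% to 8.74% of all genes in those fits), with the remaining library of that group assumed to vary like the other groups. Ascl2 was lost in each of these fits and also without either STAT3KO CD8 library. Pou2af1 was lost without WT CD4 replicate 1, WT CD4 replicate 2 or STAT3KO CD4 replicate 1, and Il21 without STAT3KO CD4 replicate 2. Bcl6, Tox2, Cxcr5, Angptl2 and Sostdc1 were called in CD4 in every fit that left out 1 library.

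In CD8 T cells 4 of the 10 genes passed the test, all of them lower in STAT3KO: Bcl6, Il21, Angptl2 and Tox2. Of all genes, 0.732% were called lower in this comparison. The median log2 fold change over the 9 members counted in CD8 T cells was -0.91, against -0.01 over all genes, and 7 members did not overlap with the STAT3KO libraries lower, as 24.8% of all genes did. Leaving out any 1 of the 4 CD8 libraries lost the calls of all 4 genes, and leaving out either STAT3KO CD4 library lost some of them. Over the fits that left out 1 library, the CD8 log2 fold change of these 4 genes stayed below 0. It was -2.35 to -1.499 for Bcl6, -1.14 to -0.997 for Il21, -1.06 to -0.925 for Angptl2 and -1.15 to -0.682 for Tox2. The exact permutation test could not go below p = 0.333 with 2 libraries against 2, and the study's methods do not say of these RNA libraries whether their pools came from separate transplants, although they name 2 batches of 3 mice for T cell receptor sequencing. The spread between libraries may therefore be in part technical.

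An interaction term compared the difference between STAT3KO and WT across the cell types. It was 1.76 ± 0.24 on the log2 scale for Tox2, 1.31 ± 0.17 for Angptl2 and 1.04 ± 0.34 for Cxcr5, all in the direction of a smaller reduction in CD8 T cells, and it was -0.36 ± 0.18 for Il21. None of the 10 genes and 0% of all genes passed the test by edgeR's quasi-likelihood fit. At an unadjusted p under 0.05 there were 3 of the 10 genes and 7.90% of all genes. DESeq2 called 2 of the 10, Tox2 and Angptl2, and 1.53% of all genes.

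All 10 genes were lower in CD8 than in CD4 T cells, in both genotypes and without overlap, as 30.0% of all genes were in WT and 28.7% in STAT3KO. In WT cells all 10 passed the test, against 11.6% of all genes called lower, and in STAT3KO cells 7 did, against 6.67%. The list was chosen with these levels known and Ascl2 passed the filter through the WT CD4 libraries alone, so nothing is read from these counts. In WT, CD8 T cells held 2.29% of the CD4 level of Sostdc1, 7.25% of Cxcr5, 9.15% of Il21, 11.0% of Maf, 11.5% of Bcl6, 14.9% of Angptl2, 18.4% of Tox2, 22.9% of Pou2af1 and 56.6% of Sh2d1a. The CD8 libraries held 0.271% of the CD4 level of the Cd4 transcript itself in WT, so each of these 9 shares was above that of the transcript that marks the other sort. Cd40lg, another transcript far lower in CD8 T cells, had a share of 1.95% in WT and 2.14% in STAT3KO. In both genotypes the Sostdc1 shares of single CD8 libraries overlapped those of Cd40lg. In STAT3KO cells the mean share was higher for 8 of the 9 genes, at 81.2% for Sh2d1a, 62.0% for Tox2, 40.7% for Pou2af1, 37.0% for Angptl2, 14.9% for Cxcr5, 14.7% for Bcl6, 11.6% for Maf and 3.52% for Sostdc1, and lower for Il21 (7.12%). For Bcl6, Maf and Sostdc1 the shares of single CD8 libraries overlapped between genotypes. These shares and the comparisons between genotypes use the same libraries. Markers of macrophages and dendritic cells summed to 34.7 to 98.6 CPM in CD4 and 267 to 359 CPM in CD8 libraries, with Itgax, which activated CD8 T cells also make, at up to 274 CPM, and their part in these differences was not tested. Among them, C1qa was at 1.04 to 3.10 CPM in replicate 1 and 13.3 to 22.2 CPM in replicate 2 libraries. Csf1r was at 0.562 to 2.55 CPM and 11.4 to 18.1 CPM, whereas Itgax was lower in replicate 2 of both CD8 groups. Without WT CD8 replicate 1, Sh2d1a was no longer called in WT, and Tox2 was called in STAT3KO in 3 of the 8 fits that left out 1 library.

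**Figure D3:**
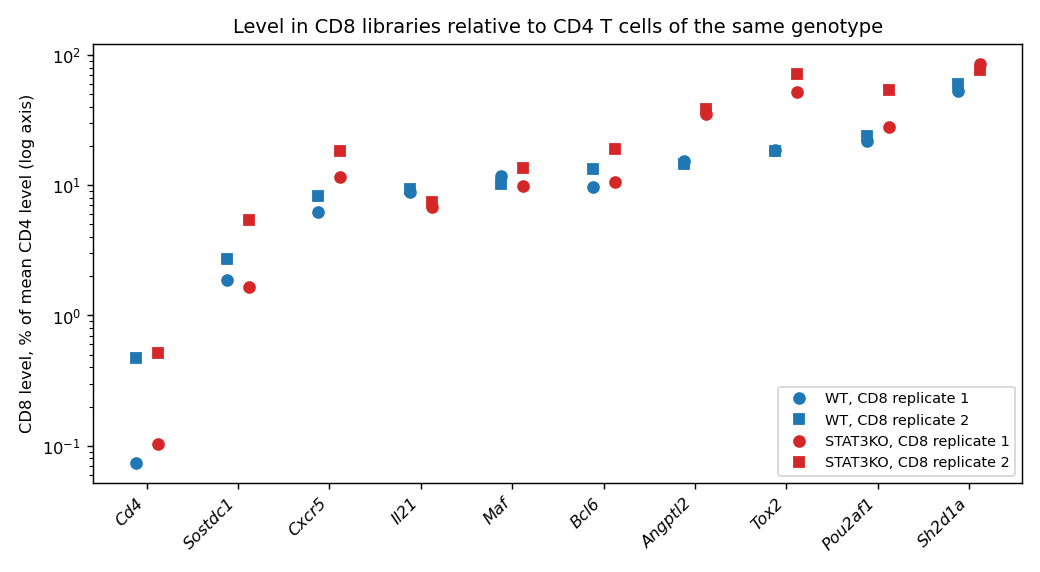
Level in each CD8 library as a percent of the mean CD4 level of the same genotype (y axis, log scale) for Cd4 and the 9 members counted in CD8 T cells (x axis), in WT (blue) and STAT3KO (red), with circles for CD8 replicate 1 and squares for CD8 replicate 2. The Cd4 points lie between 0.0736% and 0.514%, below those of each member in the same library.

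The members did not follow the 8 libraries in 1 common pattern. By Pearson's r of log2 CPM, Cxcr5 was most like Sostdc1 among the members (r = 0.989 over 8 libraries), Bcl6 was also most like Sostdc1 (r = 0.985) and Tox2 most like Angptl2 (r = 0.975). Maf was most like Il21 (r = 0.960). Sh2d1a stood farthest from the others, with r = 0.793 to its nearest, Cxcr5. The libraries form 4 groups, so these values describe group differences and carry no p. Over other genes averaging at least 1 in log2 CPM, the nearest were Rab3a for Bcl6 (r = 0.994), Rapgef5 for Tox2 (0.993), Pptc7 for Ascl2 (0.988), Rab11fip1 for Pou2af1 (0.989) and Tmem64 for Maf (0.997). For Cxcr5 the nearest was Sesn3 (0.995), for Sh2d1a Grpel2 (0.984), for Il21 Kctd17 (0.995), for Angptl2 Tbc1d30 (0.996) and for Sostdc1 Nfkbia (0.997). Sh2d1a had 21 genes with r over 0.95, whereas Cxcr5 had 234.

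Other genes of the follicular helper program were taken from lists of 33 promoting, 19 restraining and 5 follicular regulatory genes, all 57 of which passed the filter. These lists were drawn up with earlier results of these data known. The counts and adjusted p-values of the 57 genes are therefore a description and no independent support. In CD4 T cells 15 of the 57 were called, 11 lower and 4 higher in STAT3KO, or 26.3% against 11.6% of all genes. Of the 33 promoting genes 10 fell, 1 rose and 22 did not pass the test, with a median log2 fold change of -0.37. Of the 19 restraining genes 1 fell and 2 rose, with a median of 0.06.

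Among the promoting genes, Tcf7, the HMG-box factor TCF1 that acts upstream of Bcl6, fell in CD4 T cells, where WT held 1452 and 1345 CPM and STAT3KO 420.0 and 389 CPM (log2 fold change -1.79 ± 0.17, adjusted p = 0.00137, edgeR). Il4, the cytokine of follicular help to antibody class switching, was rare, at 9.68 and 3.40 CPM in WT and 1.40 and 0.78 CPM in STAT3KO (-2.58 ± 0.67, adjusted p = 0.0460, edgeR). The IL-6 receptor chain Il6ra was at 146 and 153 CPM in WT and at 62.3 and 63.0 CPM in STAT3KO (-1.25 ± 0.29, adjusted p = 0.0319, edgeR). The coreceptors Btla (-1.18 ± 0.18, adjusted p = 0.00711, edgeR) and Tigit (-0.82 ± 0.10, adjusted p = 0.00360) fell as well. Icos, the costimulator that follicular helper cells need, fell from 2326 and 3162 CPM to 1235 and 1399 CPM (-1.06 ± 0.20, adjusted p = 0.0153, edgeR).

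Other hallmark molecules of T cell help did not pass the test. Cd40lg, the ligand that activates B cells through CD40, was at 161 and 141 CPM in WT CD4 and at 121 and 104 CPM in STAT3KO CD4 T cells, without overlap (-0.42 ± 0.13, adjusted p = 0.0860, edgeR). DESeq2 called it at the same size (-0.43, adjusted p = 0.0466). Pdcd1 (PD-1) was at 340 and 233 CPM in WT and at 314 and 254 CPM in STAT3KO, so the genotypes overlapped (-0.01 ± 0.23, adjusted p = 0.979, edgeR). Slamf1, a receptor of the SLAM family, was the promoting gene that rose (0.59 ± 0.13, adjusted p = 0.0279, edgeR), and it was picked out after its value was seen.

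Prdm1, the opponent of Bcl6, rose from 81.6 and 55.7 CPM to 140.2 and 122 CPM in STAT3KO CD4 T cells (0.94 ± 0.19, adjusted p = 0.0192, edgeR). Il2rb, a chain of the IL-2 and IL-15 receptors whose signals restrain follicular helper cells, rose from 822 and 735 CPM to 1434 and 1484 CPM (0.91 ± 0.10, adjusted p = 0.00217, edgeR). Stat5a, which acts downstream of those receptors, fell from 185 and 209 CPM to 81.3 and 77.3 CPM (-1.32 ± 0.10, adjusted p = 0.000806, edgeR). Stat5a neighbors Stat3 and shares 1.01% of its annotated exon bases with it on the opposite strand. In the follicular regulatory list Il10 alone was called, from 64.0 and 38.2 CPM to 139.5 and 149.8 CPM (1.502 ± 0.29, adjusted p = 0.0178, edgeR), and it was singled out after its value was seen. Without WT CD4 replicate 2, STAT3KO CD4 replicate 1 or STAT3KO CD4 replicate 2, the 15 calls became 8, 6 and 4, while the share of all genes called went from 11.6% to 4.42%, 3.24% and 3.23%. Tcf7, Tigit, Stat5a and Il2rb were called in all 8 fits that left out 1 library, whereas Icos, Prdm1, Slamf1 and Il10 were lost without any of those 3 libraries and Btla without either STAT3KO CD4 library. Il6ra was called only without a WT CD8 library, and Il4 only without WT CD4 replicate 2 or a STAT3KO CD8 library.

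**Figure D4:**
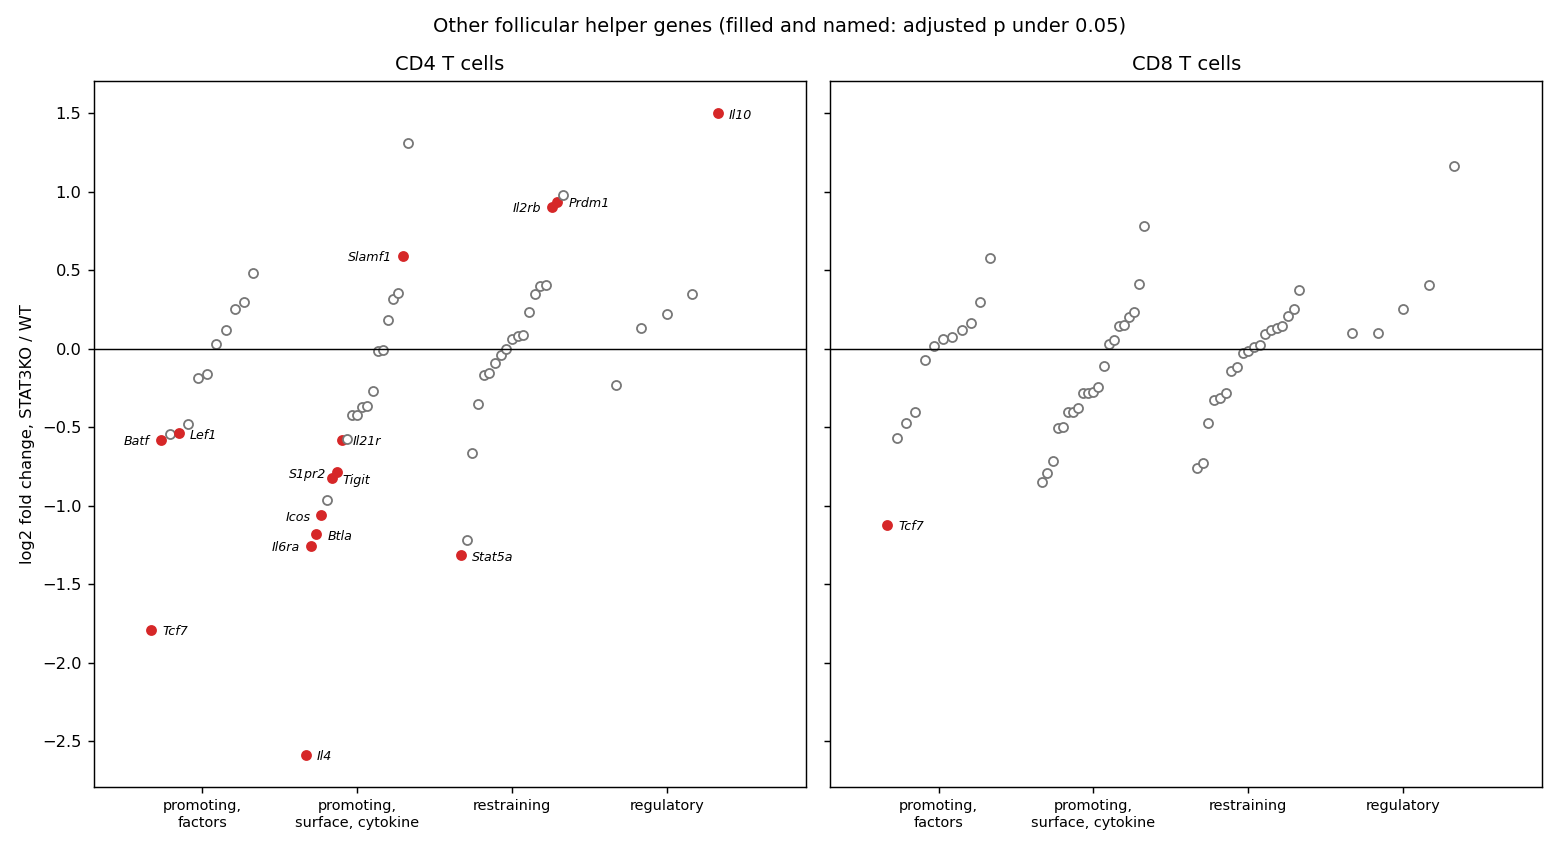
Log2 fold change of STAT3KO against WT (y axis) for 57 other follicular helper genes, grouped by list (x axis) and ordered by value within a list, in CD4 (left) and CD8 T cells (right), with filled and named points where the adjusted p was under 0.05. In CD4 T cells 15 genes are filled, 11 of them below 0, and in CD8 T cells Tcf7 alone is filled.

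In CD8 T cells 1 of the 57 genes was called, 1.75% against 2.07% of all genes. Tcf7 fell from 285 and 386 CPM to 141 and 168 CPM (-1.12 ± 0.16, adjusted p = 0.0251, edgeR). The call was lost without STAT3KO CD4 replicate 1 or 2, WT CD8 replicate 2, or STAT3KO CD8 replicate 1 or 2, and without WT CD8 replicate 1 Il6ra was called beside it. Icos did not pass the test in edgeR (-0.71 ± 0.20, adjusted p = 0.109) and did in DESeq2 (-0.72, adjusted p = 0.00845). Cd40lg (-0.28 ± 0.19), Pdcd1 (-0.11 ± 0.23) and Prdm1 (0.02 ± 0.18) did not pass it in either. None of the 57 genes passed the test of the interaction by edgeR's quasi-likelihood fit (10 at an unadjusted p under 0.05), and DESeq2 called 2.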

How the data were processed

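RNA of sorted donor T cells was sequenced in 8 libraries. Per the study's methods, the authors aligned reads to mm10 with STAR and summed raw counts per RefSeq gene with HTSeq-count. A second deposited table gives the same genes in RPKM. The labels and the methods name different library kits, and the strand setting of the counting was not given in the sources used here. Groups came from the labels.

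Counts were fitted in edgeR 4.0.16 (R 4.3.3; TMM, filterByExpr with a minimum count of 10, quasi-likelihood F-test, 1 mean per group over all 8 libraries), with Benjamini-Hochberg adjustment over 12428 genes and a threshold of 0.05. The SE is the log2 fold change divided by the square root of F. The script was tested on simulated data. Alternatives used DESeq2 1.42.0, limma 3.58.1 on log2(RPKM + 1) or log2(RPKM + 0.1), other scalings, no filter, a replicate block and leaving out each library. The CPM are scaled by TMM. Exon sharing came from GENCODE M21 and promoter windows from RefSeq.

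The members and the gene lists were chosen with earlier results of these data known, and a pair of listed genes is not reported here. Named genes were the members, up to 6 called genes of largest change in the promoting and restraining lists per comparison, and Cd40lg, Icos, Pdcd1, Prdm1 and Tcf7. Of the other marker lists summed, erythroid and neutrophil markers gave at most 17.2 CPM and T cell identity genes 4275 to 5007 CPM. Kept genes held 99.96% to 99.97% of counts. Replicates of a group differed by more than counting noise. Counting intervals cover counting error only.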

Additional observations from a re-analysis of the deposited data

Results flagged for a closer look

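In 2 genes of the restraining list, every STAT3KO library differed from WT in 1 direction in CD4 T cells and in the other in CD8 T cells. These were 2 of the 67 members and other follicular helper genes (2.99%), near the 2.79% of all genes that did so. Id2, an inhibitor of helix-loop-helix factors, was at 380 and 382 CPM in WT CD4 and 418 and 389 CPM in STAT3KO CD4, but at 438 and 447 CPM in WT CD8 and 392 and 315 CPM in STAT3KO CD8. The fitted difference of the effects was -0.41 on the log2 scale and did not pass the test over all genes. Il2ra, the high-affinity IL-2 receptor chain, was at 93.6 and 68.8 CPM in WT CD4 and 97.1 and 94.1 CPM in STAT3KO CD4, but at 165 and 142 CPM in WT CD8 and 119 and 134 CPM in STAT3KO CD8. Its fitted difference was -0.51 and did not pass the test either.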

How the results depend on the processing

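The members called in CD4 T cells were 6 to 8 in all alternatives, and in CD8 less CD4 in WT 9 or 10. DESeq2 gave no adjusted p for Ascl2. In CD8 T cells 4 members (2.07% of all genes) became 5, with Sostdc1, by DESeq2, the likelihood-ratio test or no filter. The share of all genes called there was 7.12%, 6.56% and 2.58%. Called members were 2 with log2(RPKM + 0.1) (0.877% of all genes) and 1 in the 4 CD8 libraries alone (0.307%). Leaving out 1 CD8 library lost these calls. For the interaction, 0 members became 2 with DESeq2, the likelihood-ratio test or no filter (1.53%, 1.10% and 0.250% of all genes). Of the 57 other genes, 15 called in CD4 became 4 to 15 without 1 library. In CD8, 1 became 10 (DESeq2, which called 7.12% of all genes), 4 (likelihood-ratio test or no filter), 0 (log2(RPKM + 0.1), or only the CD8 libraries) and 0 to 2 without 1 library. For the interaction, 0 became 2 (DESeq2) or 1 (likelihood-ratio test). In CD8 less CD4 in STAT3KO, 23 became 14 to 22 without 1 library. The cause of these shifts was not tested.

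In the sample titles, libraries of replicate 1 and of replicate 2 carry separate runs of serial numbers. Libraries of the same replicate number deviated together (r from 0.424 to 0.671 between groups), but the labels do not say what the replicate number marks. With the number as a block, called members were 8 in CD4, 6 in CD8 and 3 (Tox2, Angptl2 and Cxcr5) for the interaction, and called other genes were 32, 15 and 3, and 43 in CD8 less CD4 in WT and 35 in STAT3KO. The calls over all genes rose with them, to 30.1% in CD4, 18.2% in CD8, 3.24% for the interaction, and 42.1% and 29.7% in CD8 less CD4. Among those gained were Sostdc1, Cxcr5 and Icos in CD8 and Cd40lg in CD4, at log2 fold changes close to those without the block.

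Signs reversed for uncalled values only. Maf in CD4 was -0.0021 with total counts and -0.29 to 0.39 without 1 library. Sh2d1a in CD4 was -0.45 to 0.023, Maf in CD8 -0.15 to 0.31, and the interaction -0.30 to 0.39 for Maf, -0.11 to 0.72 for Bcl6 and -0.43 to 1.24 for Sostdc1. With 2 libraries a group, small differences were not detectable.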
